A study of Xenopus tropicalis with 24 samples.

Results

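Oxidative stress and cystine uptake were followed here through 9 genes, chosen by name from the 26531 genes counted: slc7a11, hmox1, gclc, gclm, txnrd1, srxn1, sqstm1, nfe2l2 and keap1. Stage 54 tadpoles of the frog Xenopus tropicalis, either wild type (WT) or of the genotype labelled TRDKO, which the series describes as being without thyroid hormone receptor, gave RNA for sequencing from intestine and from tail. Tadpoles of each genotype were kept for 18 h at 25 °C either untreated (control) or with 5 nM T3 (triiodothyronine, the active thyroid hormone that drives frog metamorphosis). The 8 groups of organ, genotype and treatment held 3 libraries each, and the question of the study was which hormone responses need the receptor in each organ. The sources used here give neither the lesions behind the TRDKO label nor how many tadpoles entered a library, and they name no batch. Levels are given as CPM, the counts of a gene relative to all counts of its library, scaled between libraries by edgeR's TMM factors (trimmed means of M values), which reduces the influence of a few abundant genes.

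In vertebrates, the transcription factor NRF2 (the product of nfe2l2) is held in the cytoplasm and marked for destruction by KEAP1, whose reactive cysteines sense oxidants and electrophiles. When KEAP1 is modified, or sequestered by the autophagy receptor p62 (sqstm1), NRF2 accumulates largely without a change in its own mRNA and switches on genes that carry antioxidant response elements. Among the best known of these in mammals are slc7a11, the cystine importer subunit of system xc-, gclc and gclm, the subunits of glutamate-cysteine ligase that limits glutathione synthesis, hmox1, which breaks down haem, txnrd1, which reduces thioredoxin, and srxn1, which restores over-oxidised peroxiredoxins. The gene sqstm1 is itself an NRF2 target in mammals, and hmox1 also answers to haem.

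The 9 genes lie apart in the genome (assembly UCB_Xtro_10.0, the positions of the counting annotation) and each spans exons and introns of a protein-coding gene. Cystine importer gene slc7a11 is on chromosome 1 (61778422 to 61872134, plus strand, 12 merged exons, 6625 exonic bases). Haem oxygenase gene hmox1 is on chromosome 4 (115580468 to 115587518, plus strand, 5 merged exons, 2969 exonic bases). The ligase subunit genes are on different chromosomes, gclc on chromosome 5 (96702141 to 96730780, plus strand, 16 merged exons, 3316 exonic bases) and gclm on chromosome 4 (103820880 to 103836813, minus strand, 7 merged exons, 1379 exonic bases). Thioredoxin reductase gene txnrd1 is on chromosome 3 (49907441 to 49945432, plus strand, 17 merged exons, 3138 exonic bases), and sulfiredoxin gene srxn1 on chromosome 10 (592477 to 598385, minus strand, 2 merged exons, 1813 exonic bases). Autophagy receptor gene sqstm1 is on chromosome 3 (22196571 to 22205639, minus strand, 8 merged exons, 2118 exonic bases). Regulator gene nfe2l2 is on chromosome 9 (65683377 to 65697017, minus strand, 5 merged exons, 2730 exonic bases), and keap1 on chromosome 3 (138039172 to 138057549, minus strand, 6 merged exons, 2722 exonic bases).

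Libraries held 17577407 to 24699154 counted fragments. Replicates 1 and 3 of WT control tail did not differ detectably beyond sampling noise and were counted as 1 sample, so that group has n = 2. The common spread between libraries of a group beyond counting noise, as estimated by edgeR, was 1.675% in tail and 6.28% in intestine. Whether this small spread is one between tadpoles or a technical one is not known here. Replicate 3 of TRDKO T3 intestine stood apart from its partners (mean chi-square per gene 22.8 and 27.6, against 1.32 between the other two), and without it 1 call of the 9 genes was lost and 2 were gained, all for T3 in TRDKO intestine, as given there. Summed muscle markers gave 38410.0 to 39625 CPM in WT control tail, and summed enterocyte markers gave 29291 to 31377 CPM in WT control intestine, against 1947 to 2040.5 and 425 to 439.8 CPM in the other organ, as the tissue labels say. Counts of thra (9.75 CPM in WT control and 5.23 CPM in TRDKO control intestine) do not check the genotype, since the lesions are not known here. The receptor gene thrb is itself switched on by T3 in frogs. In intestine it rose with T3 from 3.35 to 66.8 CPM in WT and from 5.18 to 36.2 CPM in TRDKO. In tail it rose from 6.97 to 52.1 CPM in WT and from 25.1 to 48.7 CPM in TRDKO. Without hormone thrb was thus higher in TRDKO tail than in WT tail (log2 fold change 1.83).

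The main feature of these genes was a high level in untreated wild type tadpoles. For 8 of the 9 genes, in each organ, every WT control library was above any library of the other 3 groups of that organ. The exception was nfe2l2. The share of all genes with such a gap was not counted, so how unusual it is among all genes is not known here. For txnrd1 in tail the margin rests on few fragments. The lowest WT control library held 12 (0.555 CPM), and replicate 3 of TRDKO control held 13 (0.528 CPM). Together the 9 genes took 0.461 to 0.470% of all counts in WT control intestine and 0.462 to 0.465% in WT control tail. Their share was 0.0968 to 0.103% in the other intestine groups and 0.0434 to 0.0519% in the other tail groups. In bulk tissue, fewer cells of a type and less RNA per cell cannot be told apart.

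**Figure D1:**
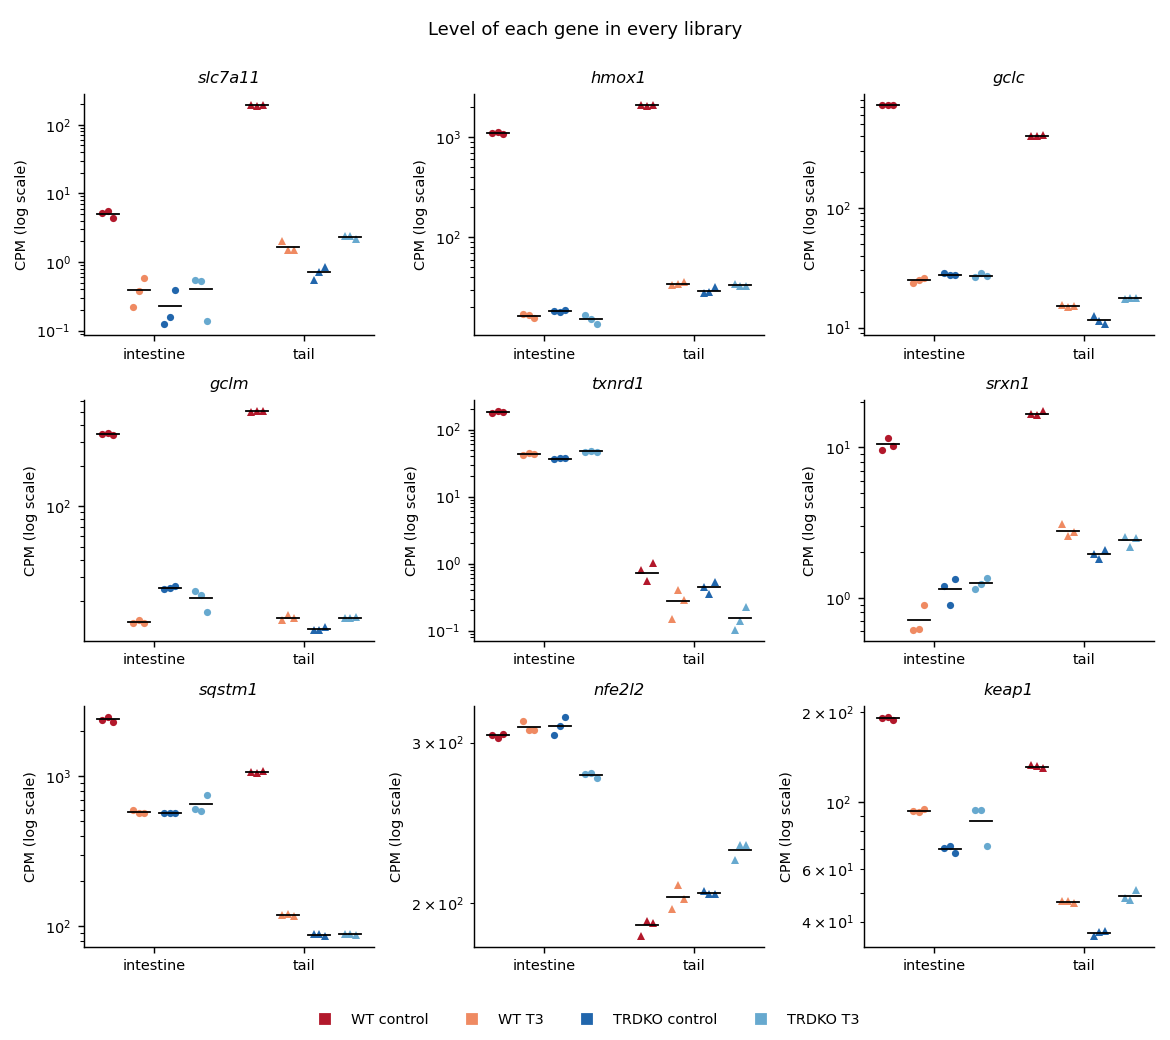
Level of each of the 9 genes in every library, in CPM on a log axis, with circles for intestine, triangles for tail, colours for the 4 groups of each organ and a black bar at the group mean. WT control libraries (dark red) stand above the rest for every gene except nfe2l2, though narrowly for txnrd1 in tail (lowest 0.555 against at most 0.528 CPM). For example, hmox1 in tail is at 2050.2 to 2085 CPM against 27.8 to 35.5 CPM in the other 3 tail groups.

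With T3, 8 of the 9 genes fell in WT intestine and 8 of 9 in WT tail (edgeR quasi-likelihood test, adjusted over all genes). The background is wide: 30.3% of all tested genes were lower with T3 and 30.3% higher in WT intestine, and 33.5% lower and 35.4% higher in WT tail. Falls of at least 4-fold were rarer, at 1.83% of genes in intestine and 1.2% in tail, and 7 of the 9 genes in intestine and 6 of 9 in tail were among them. Between genotypes without hormone, 8 of 9 genes were lower in TRDKO than in WT in each organ. For that comparison 28.7% of genes were lower and 29.1% higher in intestine, and 36.6% lower and 36.4% higher in tail. At least 4-fold lower in TRDKO were 2.27% of genes in intestine and 1.8% in tail, and 7 and 6 of the 9 genes. The 9 genes were chosen with earlier results of these data known, so these counts are not an independent test of them. The T3 effect in WT and the genotype difference without hormone use the same WT control libraries, so they are not separate observations of the high level there. Heat shock genes were also high in these libraries. The sources record no handling or batch. In every comparison that uses WT control libraries, an effect of hormone, genotype or organ cannot be told apart from their handling or batch.

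Haem oxygenase 1, the enzyme that releases iron, carbon monoxide and biliverdin from haem, had the highest level per length of these genes in WT control tail (696 CPM per kb of exon). In intestine, hmox1 read 1087, 1116 and 1063 CPM in the WT control libraries, and those of WT T3 held 17.02, 16.8 and 15.6 CPM. TRDKO intestine gave 18.6, 18.1 and 18.9 CPM without hormone and 16.7, 15.3 and 13.7 CPM with T3. Only the WT control libraries were high, and the other 3 groups lay within a range of 13.7 to 18.9 CPM. The fall with T3 in WT intestine was -6.09 ± 0.07 on the log2 scale (SE; 68.3-fold lower, adjusted p = 1.21e-16), rank 22 from the lowest of 15491 genes. In tail, hmox1 read 2078, 2050.2 and 2085 CPM in WT control, falling to 33.4, 34.4 and 35.5 CPM with T3, a log2 difference of -5.90 ± 0.03 (adjusted p = 4.83e-104). TRDKO tail held 27.8, 28.7 and 31.7 CPM without hormone and 33.9, 33.01 and 32.3 CPM with T3. The WT control libraries did not overlap with any other group, and the genotype difference without hormone was -6.13 ± 0.03 in tail and -5.92 ± 0.07 in intestine.

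The cystine importer gene slc7a11 had the largest contrast of the 9 in tail and a low level in intestine. Tail libraries gave 194, 188 and 194 CPM in untreated WT tadpoles and 2.03, 1.48 and 1.48 CPM in WT tadpoles with T3. In TRDKO tail they gave 0.548, 0.707 and 0.853 CPM without hormone and 2.35, 2.36 and 2.18 CPM with T3. The 4 tail groups did not overlap, and their order from high to low was WT control, TRDKO T3, WT T3 and TRDKO control. The fall with T3 in WT tail was -6.83 ± 0.06 on the log2 scale (114-fold, adjusted p = 6.47e-88), rank 7 from the lowest of 17018 genes. TRDKO control tail was lower than WT control, with a log2 fold change of -8.08 ± 0.07 (271-fold, adjusted p = 3.3e-91). In intestine, WT control libraries held 5.24, 5.57 and 4.32 CPM and those of the other 3 groups 0.125 to 0.577 CPM. The intestine values rest on few fragments, 307 over the WT control libraries and 23, 14 and 23 over those of WT T3, TRDKO control and TRDKO T3. Even so, slc7a11 fell with T3 in WT intestine (log2 fold change -3.69 ± 0.28, adjusted p = 8.26e-08), while the other 3 intestine groups overlapped.

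Glutamate-cysteine ligase joins glutamate to cysteine, and its catalytic subunit gene gclc and modifier subunit gene gclm shared the pattern of a single high group. In intestine, gclm read 347, 352 and 337 CPM in WT control, against 13.5, 14.3 and 13.6 CPM with T3. TRDKO intestine read 24.4, 24.8 and 25.6 CPM without hormone and 23.7, 22.1 and 16.5 CPM with T3. Below the high WT control libraries, the WT T3 libraries were thus the lowest and both TRDKO groups lay above them. In tail, gclm read 504, 507 and 511 CPM in WT control, against 12.1 to 15.7 CPM in the other 3 groups. Catalytic subunit gclc ran from 721 to 726 CPM in WT control intestine and 23.6 to 28.6 CPM in the rest of the intestine, and from 398 to 406 CPM against 10.7 to 17.8 CPM in tail. None of the WT control values came near those of another group. Both fell with T3 in WT. The log2 fold change of gclc was -4.91 ± 0.05 (SE) in intestine (adjusted p = 6.65e-17) and -4.72 ± 0.03 in tail (adjusted p = 5.66e-95), and that of gclm -4.69 ± 0.09 (adjusted p = 3.76e-14) and -5.08 ± 0.03 (adjusted p = 6.42e-99).

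The gene txnrd1 was well counted in intestine and barely counted in tail. Cytosolic thioredoxin reductase gene txnrd1 read 179, 189.6 and 185 CPM in WT control intestine and 41.8, 44.1 and 43.2 CPM in WT T3 intestine. TRDKO intestine held 35.9, 36.95 and 37.3 CPM without hormone and 46.6, 47.9 and 46.95 CPM with T3. The 4 intestine groups did not overlap, in the order WT control, TRDKO T3, WT T3, TRDKO control. In tail, txnrd1 had 48, 17, 34 and 13 fragments in all libraries of WT control, WT T3, TRDKO control and TRDKO T3 (0.102 to 1.01 CPM). Few counts therefore lie behind its tail differences, such as -1.46 ± 0.39 with T3 in WT (log2 with SE, adjusted p = 0.00065). The genotype difference of txnrd1 without hormone in tail, -0.81 ± 0.33 (adjusted p = 0.0231), was not past the threshold without replicate 2 of TRDKO control (log2 fold change -0.67) or without replicate 3 of WT control (-0.59), nor with DESeq2 (-0.75, adjusted p = 0.176).

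Among the other thioredoxin reductase genes, txnrd3, a close relative of txnrd1 that also carries a glutaredoxin domain in mammals, was well counted in both organs. Its mean was 529 ± 6.55 CPM (SD, n = 3) in WT control intestine against 181 to 231 CPM in the libraries of the other groups. In tail it was 418 ± 6.64 CPM (SD, n = 2) in WT control against 130.1 to 141 CPM. It fell with T3 in WT, with log2 fold changes of -1.57 ± 0.05 in intestine and -1.66 ± 0.02 in tail (adjusted p = 2.93e-12 and 8.85e-71). Mitochondrial reductase gene txnrd2 showed no step of that size, at 25.1 to 25.4 CPM in WT control intestine and 17.1 to 19.3 CPM in WT control tail. These lay within or near the 21.6 to 30.7 CPM and 13.03 to 17.9 CPM of the other groups. With T3 in WT it fell by smaller log2 fold changes, -0.18 ± 0.07 in intestine and -0.37 ± 0.07 in tail (adjusted p = 0.0354 and 1.28e-06).

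**Figure D2:**
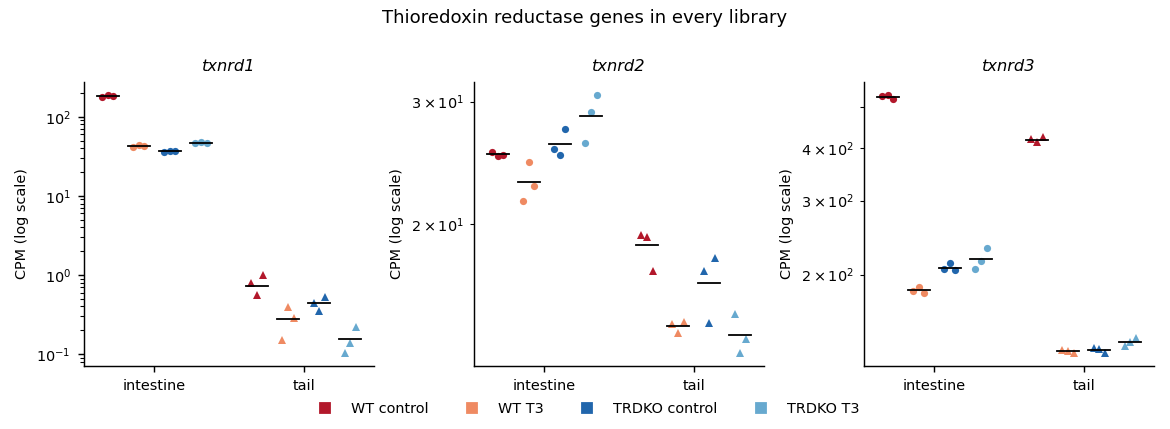
Level of the 3 thioredoxin reductase genes in every library, in CPM on a log axis whose range differs between panels, with circles for intestine, triangles for tail, colours for the 4 groups of each organ and a black bar at the group mean. The tail mean of txnrd1 is 0.726 CPM in WT control and lower in the other tail groups, while txnrd3 has a mean of 418 CPM in the same libraries.

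Sulfiredoxin gene srxn1, counted at low levels, stood at 9.62, 11.5 and 10.2 CPM in WT control intestine and at 0.612 to 1.36 CPM in the other intestine groups. In tail the WT control libraries held 16.5, 16.3 and 17.4 CPM and the other groups 1.81 to 3.08 CPM. The WT control libraries were again the high ones. With T3 in WT, srxn1 fell, at log2 fold changes of -3.92 ± 0.16 in intestine (adjusted p = 7.22e-11) and -2.57 ± 0.10 in tail (adjusted p = 1.35e-39).

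Of the genes upstream, sqstm1, whose product carries ubiquitinated cargo into autophagosomes and binds KEAP1, was the most abundant of the 9 per length in WT control intestine (1134 CPM per kb). It read 2322 to 2498 CPM there and 567 to 756 CPM in the other intestine groups, and 1059 to 1079 CPM in WT control tail and 86.05 to 120.0 CPM in the other tail groups. Its fall with T3 in WT was -2.10 ± 0.08 in intestine (adjusted p = 5.63e-11) and -3.16 ± 0.03 in tail (adjusted p = 3.75e-92). The sensor gene keap1 changed less. In intestine keap1 read 191, 193 and 188 CPM in untreated WT tadpoles, and 93.5, 92.8 and 95.3 CPM with T3. TRDKO libraries held 70.2, 71.7 and 67.98 CPM without hormone and 94.4, 94.2 and 71.6 CPM with T3. WT control was highest and TRDKO control lowest, save that the replicate of TRDKO T3 that stood apart fell within the TRDKO control range. In tail keap1 read 133, 132 and 129.9 CPM in untreated WT tadpoles, and 47.05, 46.8 and 46.1 CPM with T3. TRDKO libraries held 35.9, 37.02 and 37.2 CPM without hormone and 47.9, 47.3 and 51.2 CPM with T3. With T3 in WT it fell, with log2 fold changes of -1.07 ± 0.08 in intestine and -1.49 ± 0.03 in tail (adjusted p = 5.48e-08 and 1.76e-57).

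The mRNA of NRF2 itself was nearly level. In intestine nfe2l2 read 306, 304 and 307 CPM in untreated WT tadpoles, and 316, 309.6 and 309.5 CPM with T3. TRDKO libraries held 306, 313 and 320.1 CPM without hormone and 277, 278 and 274 CPM with T3. TRDKO with T3 was the low group, and the other 3 lay between 304 and 320.1 CPM. In tail nfe2l2 read 184, 191 and 191 CPM in untreated WT tadpoles, and 197, 209.7 and 202 CPM with T3. TRDKO libraries held 206, 205 and 205 CPM without hormone and 223, 232 and 232 CPM with T3. Here WT control was the lowest group and TRDKO T3 the highest, the reverse of the other genes for WT control. The T3 difference in WT intestine was -0.02 ± 0.04 (adjusted p = 0.699) and the genotype difference without hormone -0.01 ± 0.04 (adjusted p = 0.839), neither past the threshold. In tail, nfe2l2 rose with T3 in WT by 0.11 ± 0.03 (adjusted p = 0.000148) and was higher in TRDKO control than in WT control by 0.13 ± 0.03 (adjusted p = 1.03e-05).

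**Figure D3:**
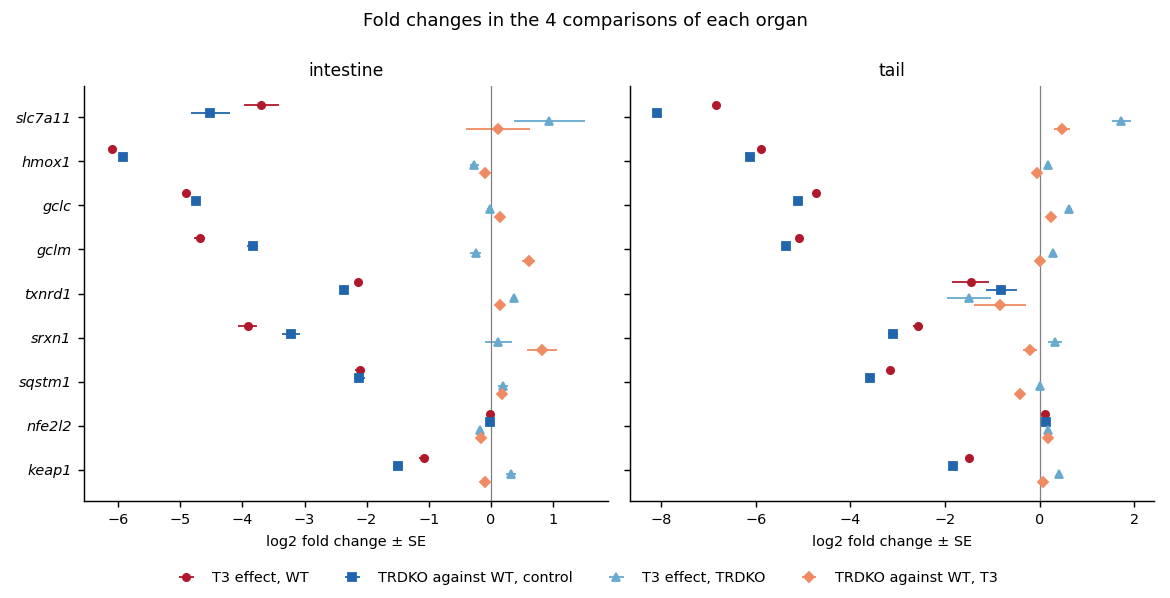
Log2 fold changes of the 9 genes with SE bars in 4 comparisons of intestine (left) and tail (right), from edgeR fits across all genes. The 2 comparisons that use WT control libraries (dark red circles, dark blue squares) reach to -8.08 for slc7a11 in tail, with nfe2l2 near 0, and the 2 that do not use them (light blue triangles, orange diamonds) lie between -1.49 and 1.72.

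In the comparisons that leave WT control libraries aside, the differences were smaller for 7 of the 9 genes in both organs, but not for nfe2l2 nor for txnrd1 in tail. With T3 in TRDKO intestine, txnrd1 rose by 0.37 ± 0.04 (adjusted p = 1.54e-05) and keap1 by 0.32 ± 0.08 (adjusted p = 0.00558). In the same comparison hmox1 fell by 0.27 ± 0.07 (adjusted p = 0.00763), nfe2l2 fell by 0.17 ± 0.04 (adjusted p = 0.00312) and gclm fell by 0.24 ± 0.09 (adjusted p = 0.05 when rounded, just under the threshold). Thus 2 of 9 rose and 3 fell, where 20.6% of all genes rose and 20.3% fell. Without the replicate that stood apart, gclm had a log2 fold change of -0.10 (adjusted p = 0.125, not past the threshold) and also failed in 10 of the other 11 fits that each left out 1 intestine library. Without that replicate slc7a11 rose by 1.28 (adjusted p = 0.0222) and sqstm1 by 0.0841 (adjusted p = 0.0256), against 0.94 ± 0.57 (adjusted p = 0.202) and 0.19 ± 0.08 (adjusted p = 0.0669) with it. The background moved too: 9004 genes passed the threshold without the replicate, against 3194 rises and 3149 falls with it.

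In TRDKO tail, T3 raised 6 of the 9 genes and lowered 1, where 26.7% of all genes rose and 26.2% fell. The cystine importer gene slc7a11 rose most, by 1.72 ± 0.20 (3.302-fold, adjusted p = 2.31e-12), from 0.703 ± 0.152 CPM (SD, n = 3) to 2.297 ± 0.101 CPM (SD, n = 3), with 54 and 197 fragments behind the groups. Its partner slc3a2, the heavy chain that carries slc7a11 to the membrane, rose from 189 to 533 CPM (adjusted p = 2.14e-67), where WT tail held 689 CPM without hormone and 520.5 CPM with it. In intestine slc3a2 was highest in TRDKO T3, at 1465 CPM, after 1037 CPM in WT control, 829 CPM in TRDKO control and 822 CPM in WT T3. Smaller rises were seen for gclc at 0.62 ± 0.06, keap1 at 0.42 ± 0.04, gclm at 0.27 ± 0.06, hmox1 at 0.18 ± 0.05 and nfe2l2 at 0.17 ± 0.02, with adjusted p of at most 0.000453. The gene that fell was txnrd1 (log2 fold change -1.49 ± 0.46, adjusted p = 0.00329) on the few counts given above. Enterocyte markers summed to 631 to 651 CPM in TRDKO control tail and 408 to 424 CPM in TRDKO T3 tail. Among them apoa1 had means of 95.7 and 10.3 CPM there, against 0.279 CPM in WT control tail. The part of this cell type in the txnrd1 difference was not tested. Values for srxn1 (0.32 ± 0.15) and sqstm1 (0.01 ± 0.03) did not pass.

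Under T3, TRDKO intestine was higher than WT intestine for srxn1 by 0.82 ± 0.24 (adjusted p = 0.0121), gclm by 0.61 ± 0.10 (adjusted p = 0.000191), gclc by 0.14 ± 0.05 (adjusted p = 0.0335) and txnrd1 by 0.14 ± 0.04 (adjusted p = 0.0165), and lower for nfe2l2 (log2 fold change -0.16 ± 0.04, adjusted p = 0.00367). Of all genes 25.1% were higher and 24.3% lower in TRDKO. Of these 5 calls, those of gclc and txnrd1 were lost without replicate 1 of WT T3 (log2 fold changes 0.0999 and 0.11) or without replicate 2 of TRDKO T3 (0.11 and 0.13), and those of gclc and srxn1 without replicate 2 of WT T3 (0.15 and 0.72). That of gclc was also lost without replicate 2 of WT control (0.13). In tail under T3, slc7a11 was higher in TRDKO by 0.47 ± 0.17 (adjusted p = 0.0114), gclc by 0.23 ± 0.06 (adjusted p = 0.000369) and nfe2l2 by 0.18 ± 0.02 (adjusted p = 1.14e-10), and sqstm1 was lower (-0.42 ± 0.03, adjusted p = 2.53e-23). In that comparison 34.1% of all genes were higher and 31.4% lower. The slc7a11 call was lost without replicate 2 (0.40) or replicate 3 (0.39) of WT T3. For the remaining genes of each organ the difference under T3 did not pass, hmox1 among them at -0.10 ± 0.07 in intestine and -0.05 ± 0.05 in tail.

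The T3 effect differed between genotypes for all 9 genes in intestine, where the interaction (T3 effect in TRDKO minus that in WT) was above 0 for 8 and below 0 for nfe2l2 at -0.15 ± 0.06 (adjusted p = 0.0336). In tail it was above 0 for 7 genes and did not pass for nfe2l2 (0.05 ± 0.04) and txnrd1 (-0.04 ± 0.64). Interactions above 0 were found for 27.2% of all genes in intestine and 32.2% in tail, and below 0 for 25.1% and 33.4%. The largest was that of slc7a11 in tail, 8.55 ± 0.23 on the log2 scale (adjusted p = 6.13e-51), followed by hmox1 at 6.08 ± 0.06 in tail and 5.82 ± 0.10 in intestine. The WT control libraries enter each interaction too. The nfe2l2 interaction in intestine was lost in 10 of the 12 fits that each left out 1 intestine library.

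Between organs, WT control tail was higher than WT control intestine for slc7a11 by 5.25 ± 0.09, hmox1 by 0.92 ± 0.05, srxn1 by 0.69 ± 0.08 and gclm by 0.56 ± 0.06. It was lower for txnrd1 (-7.88 ± 0.10), sqstm1 (-1.17 ± 0.07), gclc (-0.85 ± 0.04), nfe2l2 (-0.69 ± 0.04) and keap1 (-0.53 ± 0.06; log2 fold changes with SE, adjusted p of at most 1.68e-08 over these 9). Of all genes, 45.0% were higher in tail and 39.4% lower. In WT control the organ difference had no common direction over the 9 genes, and the ligase subunits gclc and gclm went opposite ways. In TRDKO, mean gclm was instead lower in tail, as was gclc. It was 12.4 CPM in tail against 24.9 CPM in intestine without hormone, and 14.8 against 20.7 CPM with T3. In WT T3, gclm had means of 14.9 CPM in tail and 13.8 CPM in intestine. Per kb of exon, the WT control means in tail were 121 CPM for gclc and 368 CPM for gclm, and in intestine 218 and 250.3 CPM.

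The fall with T3 in WT was deeper in tail than in intestine for slc7a11 (organ by T3 interaction, tail minus intestine, -3.19 ± 0.45), sqstm1 (-1.11 ± 0.09), keap1 (-0.47 ± 0.09) and gclm (-0.45 ± 0.10), and shallower for srxn1 (1.29 ± 0.22). Such interactions were below 0 for 21.7% of all genes and above 0 for 17.8%. For hmox1 the organ difference in the T3 effect was 0.14 ± 0.08 and did not pass. In TRDKO the T3 effect was more positive in tail for gclc (0.63 ± 0.08), gclm (0.51 ± 0.11), hmox1 (0.45 ± 0.09) and nfe2l2 (0.33 ± 0.05), and more negative for txnrd1 (-1.86 ± 0.36), with 17.4% of all genes above 0 and 14.2% below. The genotype difference without hormone was deeper in tail for slc7a11 (-3.61 ± 0.59), gclm (-1.57 ± 0.09), sqstm1 (-1.53 ± 0.09), gclc (-0.42 ± 0.07), keap1 (-0.40 ± 0.09) and hmox1 (-0.26 ± 0.08), and shallower for txnrd1 (1.51 ± 0.28), where 27.1% of all genes lay below 0 and 19.9% above. The hmox1 value did not pass under median-of-ratios scaling (-0.17), without the filter on low counts (-0.16) or with DESeq2 (-0.17). The slc7a11 interactions rest on 23 fragments in WT T3 intestine and 14 in TRDKO control intestine. Those of txnrd1 rest on 13 to 48 fragments per tail group, so the sizes of both are uncertain.

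Other genes of the same pathways were read from lists chosen by function, without the 9 genes. These lists were drawn up with earlier results of these data known. For T3 in WT, 30.3% of all genes fell and 30.3% rose in intestine, and 33.5% fell and 35.4% rose in tail. Of 27 cystine and glutathione genes tested in WT intestine, 17 fell and 5 rose with T3, with a median log2 fold change of -0.51 against 0.01 over all genes. In WT tail 18 of 28 fell and 9 rose (median -0.30, all genes 0.02). Glutathione synthetase gene gss, whose product completes glutathione, fell by 4.32 ± 0.07 in WT intestine, from 437 to 22.5 CPM. Glutathione reductase gene gsr fell in both, with log2 fold changes of -3.19 ± 0.05 in WT intestine and -4.34 ± 0.03 in WT tail. Glutathione transferase gene gstp1 fell by 6.46 ± 0.04 in WT tail, from 1592 to 17.9 CPM. By contrast gpx4, the lipid peroxide reductase that protects membranes, rose in WT intestine by 0.74 ± 0.10, from 246 to 427 CPM. Most genes of the list thus fell, as gclc and gclm did, at a smaller median size.

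Genes that supply NADPH, the reductant of both the glutathione and the thioredoxin systems, were on the list of superoxide and peroxide removal. In WT intestine 9 of its 15 genes fell with T3 and 2 rose, and in WT tail 13 fell and 1 rose, with medians of -0.29 and -0.86. Over all genes, 30.3% fell and 30.3% rose in WT intestine, and 33.5% fell and 35.4% rose in WT tail. Among them pgd, an enzyme gene of the pentose phosphate pathway, fell with log2 fold changes of -2.12 ± 0.06 in intestine and -2.44 ± 0.03 in tail. Mean pgd was 296 CPM in WT control intestine and 336 CPM in WT control tail, against 70.6 and 61.6 CPM with T3. The thioredoxin and peroxiredoxin list was mixed, with 6 of 19 falling and 8 rising in WT intestine (median 0.15) and 11 falling and 5 rising in WT tail (median -0.28). Thioredoxin gene txn, the substrate of the reductases, was higher in WT control tail than in WT control intestine (334 and 10.2 CPM, log2 fold change 5.03 ± 0.09), the opposite of txnrd1. In tail its means were 156 CPM in WT T3, 69.6 CPM in TRDKO control and 117 CPM in TRDKO T3, and the genotype difference without hormone was -2.26 ± 0.03.

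The NRF2 control list holds partners, competitors and regulators of its turnover. With T3 in WT, 9 of 14 fell and 2 rose in intestine, and 9 fell and 4 rose in tail, with medians of -0.47 and -0.49. The shares over all genes were 30.3% falling and 30.3% rising in intestine, and 33.5% and 35.4% in tail. The small Maf gene maff, whose product can pair with NRF2 on DNA, fell with log2 changes of -2.53 ± 0.05 in intestine and -3.01 ± 0.03 in tail. The gene of the haem-binding repressor BACH1, which represses hmox1 in mammals, fell in WT tail (log2 fold change -2.99 ± 0.03), from 217 to 27.1 CPM, and was thus high in the same libraries as hmox1. Between genotypes without hormone, 9 of 14 were lower in TRDKO intestine and 0 higher, and 10 lower and 2 higher in TRDKO tail. Of all genes, 28.7% were lower and 29.1% higher in intestine, and 36.6% lower and 36.4% higher in tail.

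**Figure D4:**
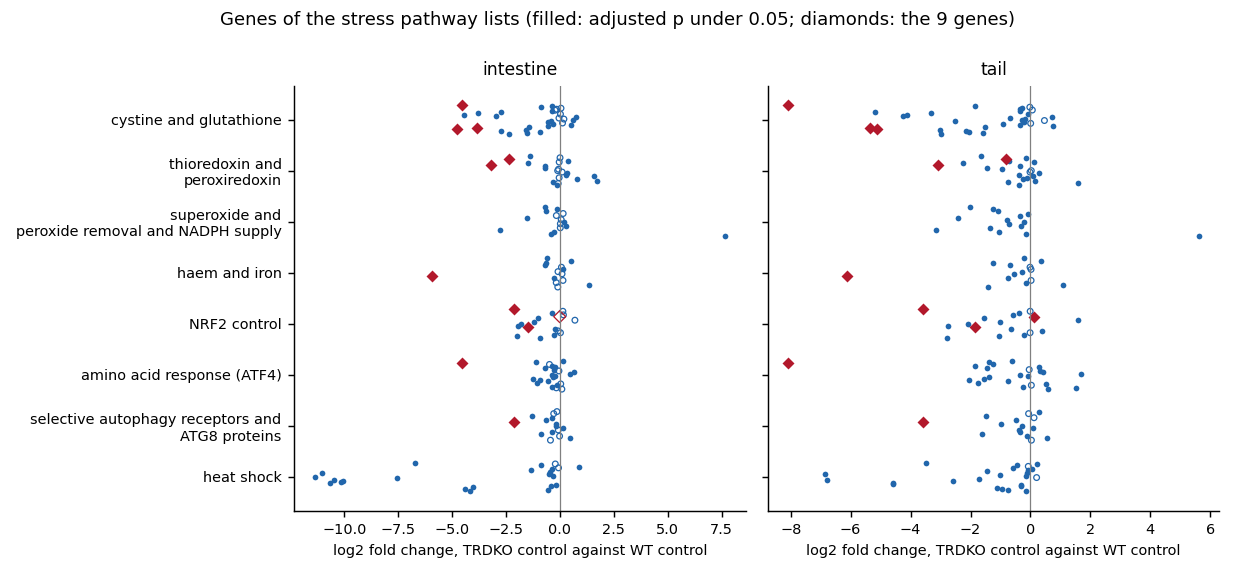
Log2 fold change between TRDKO control and WT control for each gene of the stress pathway lists, in intestine (left) and tail (right), with red diamonds for the 9 genes, blue circles for other list genes and filled symbols for those that passed the test. Apart from nfe2l2 (-0.01 in intestine and 0.13 in tail), the 9 genes are lower in TRDKO control, with txnrd1 in tail at only -0.81. Heat shock genes also reach far to the left, as do some other cystine and glutathione genes, such as gss (-4.46 in intestine and -4.13 in tail). Of these other cystine and glutathione genes, 17 of 27 are lower and 3 higher in intestine. In tail 22 of 28 are lower and 2 higher. The median of these list genes is -0.43 in intestine and -0.51 in tail. Of all genes, 28.7% are lower and 29.1% higher in intestine, and 36.6% lower and 36.4% higher in tail. SE bars are not drawn.

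Heat shock genes were high in the same WT control libraries. Inducible chaperone gene hspa1b read 431, 438 and 420.1 CPM in WT control intestine and 0.105 to 0.382 CPM in the other intestine groups, and 58.7, 58.5 and 59.4 CPM in WT control tail and 0.383 to 0.787 CPM in the others. With T3, 21 of 23 heat shock genes fell in WT intestine and 19 of 24 in WT tail. Among all genes 30.3% and 33.5% fell. Their summed level was 12409 to 13011 CPM in WT control intestine, 7213 to 7642 in WT T3, 6692 to 7111 in TRDKO control and 6188 to 7361 in TRDKO T3, and 1 of the 24 listed genes was at 0 in both WT intestine groups. The median log2 change of the list with T3 was -1.60 in WT intestine and -0.57 in WT tail. In tail the sums were 6392 to 6458, 5179.7 to 5326, 5396 to 5613 and 5021 to 5208 CPM in the same order. Their part in the levels of the 9 genes was not tested.

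Markers of other cell types also differed between the groups. Summed exocrine pancreas markers, 11 genes, were 56.5 to 58.2 CPM in WT control intestine, 1140.5 to 1159 in WT T3, 6859.8 to 7328 in TRDKO control and 269 to 342 in TRDKO T3, and the defining cpa1 had means of 0.3902, 259, 1540.2 and 71.2 CPM. Summed hepatocyte markers, also 11 genes, were 65.6 to 65.7 CPM, 17.2 to 18.3, 57.1 to 59.8 and 799 to 941 CPM in the same order. Of these, alb was at 0 in both WT groups. Most of the TRDKO T3 sum was tf, with a mean of 742 CPM. By contrast ttr had means of 16.5 CPM in TRDKO control and 8.83 CPM in TRDKO T3. Macrophage and granulocyte markers, 10 genes, summed to 154 to 162 CPM in WT control intestine, the lowest of the 4 groups. In tail they summed to 251 to 253 CPM in WT control and 286 to 295 CPM in TRDKO T3. WT T3 tail was lower, at 216 to 224 CPM, as was TRDKO control, at 247 to 249 CPM. Single markers differed. Mean csf3r was lowest in WT T3 intestine (22.2 CPM) and highest in WT control tail (104 CPM). Mean c1qc was lowest in WT control in both organs (13.3 CPM in intestine, 27.1 CPM in tail). Summed erythrocyte markers, 9 genes, were 276 to 281 CPM in WT control intestine, the lowest of the 4 groups. WT T3, TRDKO control and TRDKO T3 held 494 to 524, 495 to 535 and 349 to 476 CPM. In tail the sums were 819.9 to 840.3 CPM in WT control and 1335 to 1381 in WT T3. TRDKO tail gave 1035 to 1103 CPM without hormone and 702 to 724 CPM with T3. Most of each sum was hba3, with a mean of 260 CPM in WT control intestine. Mean alas2 was 16.3 CPM there and was lowest in TRDKO T3 intestine, at 10.7 CPM. In tail, pancreas markers summed to 1.66 to 2.01 CPM in WT control, 1.964 to 2.13 in WT T3, 83.8 to 88.9 in TRDKO control and 8.52 to 9.13 in TRDKO T3. In tail, WT control was the highest group for skeletal muscle markers, 16 genes, at 38410.0 to 39625 CPM against 35242 to 37510.0 in WT T3, 30388 to 32331 in TRDKO control and 27935 to 29432 in TRDKO T3. It was also the highest tail group for the sum of smooth muscle markers, 8 genes, at 4672 to 4772 CPM. The other sums were 4399 to 4559.9, 3755 to 3902 and 3546 to 3682 CPM in the same order. Most of the WT control sum was des.1, also on the skeletal muscle list, with a mean of 3277 CPM. For acta2 and tagln, WT control was instead the lowest tail group, with means of 77.7 and 38.8 CPM. Mean myh11 was 78.0 CPM there against 82.3 CPM in TRDKO control. In intestine the smooth muscle sums were 7140.1 to 7462, 9919.7 to 10503, 8401 to 8879 and 5581 to 6231 CPM, and WT control was not the highest. The part of these cell types in the differences of the 9 genes was not tested.

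The genes with the pattern most like hmox1 and slc7a11 were found by Pearson correlation of log2 CPM over the samples of an organ, which describes mainly the step between WT control and the rest and carries no test. For hmox1 in intestine (12 samples) these were abhd4 (r = 0.9987), pir (r = 0.9985), gclc (r = 0.9985), zfand2a (r = 0.9983), gsr (r = 0.9976). Among them pir, an iron-binding nuclear protein gene and NRF2 target in mammals, had means of 528 CPM in WT control and 24.4 to 30.7 CPM in the other groups. For hmox1 in tail (11 samples) they were gclm (r = 0.9996), afg3l2 (r = 0.9990), gss (r = 0.9987), abcg2 (r = 0.9985), gsto1 (r = 0.9982). For slc7a11 in tail they were mat2a (r = 0.9984), itgb4 (r = 0.9968), keap1 (r = 0.9966), mfsd12 (r = 0.9965), cth (r = 0.9953), of which mat2a makes S-adenosylmethionine and cth makes cysteine from cystathionine, so that keap1 of the 9 genes and a cysteine-producing gene followed slc7a11 there. For slc7a11 in intestine, on its few counts, they were brd1 (r = 0.9811), sema3b (r = 0.9799), mia2 (r = 0.9792), dynlt3 (r = 0.9791), desi1 (r = 0.9787). The correlation leaves out the size of the step, which varied. In intestine brd1 had means of 22.5 CPM in WT control and 16.9 to 18.1 CPM in the other groups. In tail itgb4 had 719 CPM against 360 to 414 CPM, and mat2a 953 CPM against 146 to 208 CPM.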

How the data were processed

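Strand-specific total RNA libraries were made from 24 samples of intestine and tail, per the labels' protocols. Per the submitters' processing notes, cutadapt 3.2, STAR 2.7.7a and featureCounts of Subread 2.0.1 were used. The deposited values are raw fragment counts per gene name, not normalized. The counting step, per the file headers, took reverse-stranded fragments on an XENTR_10.0 annotation, used primary alignments of pairs with both ends mapped, and ignored marked duplicates, which can lower the most abundant genes. Fragments of near-identical copies are counted at 1 primary place. All 24 value columns were used, and 26530 of 26531 gene names matched a RefSeq table of UCB_Xtro_10.0.

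Counts were filtered by edgeR's filterByExpr, scaled by TMM and modelled with 1 coefficient per group in edgeR 4.0.16 (R 4.3.3), whose quasi-likelihood F test with robust dispersion gave the p-values, in 12 intestine samples (15491 genes), 11 tail samples (17018 genes) or all 23 samples for organ contrasts (17887 genes). All 9 genes passed the filter. P-values were Benjamini-Hochberg adjusted over all genes of a contrast, at 0.05. Standard errors are the unshrunk log2 fold change divided by the square root of F. WT control tail replicates 1 and 3 (mean chi-square 1.01 per gene, p = 0.1255 over genes with at least 20 counts) were summed. Nothing says that replicates were separate tadpoles, so the p-values rest on the spread between libraries alone, possibly a technical one. Within an organ, replicate numbers did not pair samples: deviations of same-numbered samples correlated between -0.0425 and 0.0337. Pairing between intestine and tail libraries of the same number was not examined. The organ contrasts treat them as separate samples. The fits were tested on simulated data. The 9 genes, the pathway and marker lists and the tests were chosen with earlier results of these data known. A listed symbol absent from the table stood for its numbered copies.

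Besides the 9 genes, the text names thra, thrb and hspa1b, up to 4 genes per list and contrast (the largest rises and falls past the threshold, where the higher group averaged 5 CPM or more), up to 4 abundant markers per list and the 5 genes most like hmox1 and slc7a11 in each organ (log2 CPM with a prior count of 2). Where a gene of a list is named in another comparison, it was named by the rule in at least 1. Alternatives were other scalings (median of ratios, upper quartile), no filter on low counts, DESeq2 1.42.0, limma-voom (limma 3.58.1), 1 fit over all libraries, a replicate block, every library its own sample, and leaving out each library.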

Additional observations from a re-analysis of the deposited data

Results flagged for a closer look

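The T3 effect differed between genotypes (effect in TRDKO minus effect in WT, log2, past the threshold in edgeR's interaction test) for the following genes. In intestine the difference was 4.63 for slc7a11, 5.82 for hmox1, 4.89 for gclc, 4.45 for gclm, 2.51 for txnrd1, 4.04 for srxn1, 2.30 for sqstm1, 1.39 for keap1 and -0.15 for nfe2l2. In tail it was 8.55 for slc7a11, 6.08 for hmox1, 5.34 for gclc, 5.36 for gclm, 2.89 for srxn1, 3.17 for sqstm1 and 1.91 for keap1.

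Between organs, the T3 effect in WT (tail minus intestine) differed by -3.19 for slc7a11, -0.45 for gclm, 1.29 for srxn1, -1.11 for sqstm1 and -0.47 for keap1. The T3 effect in TRDKO differed between organs by 0.45 for hmox1, 0.63 for gclc, 0.51 for gclm, -1.86 for txnrd1 and 0.33 for nfe2l2. The genotype difference without hormone differed between organs by -3.61 for slc7a11, -0.26 for hmox1, -0.42 for gclc, -1.57 for gclm, 1.51 for txnrd1, -1.53 for sqstm1 and -0.40 for keap1.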

How the results depend on the processing

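Over the 9 genes and 14 comparisons, 2773 of the re-computed fold changes kept their direction and side of the threshold, 44 lost the threshold, 24 gained it and 30 changed sign. None of the sign changes was of a value past the threshold. Counts of all genes called stayed within 1.5 times in every alternative. Of the counts of the 9 genes past the threshold, that of the organ by T3 interaction in WT was 8 with DESeq2 (5 in the main result), and that of TRDKO against WT intestine under T3 ran from 3 to 5 when each library was left out; the others stayed within 1.5 times.

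With upper-quartile scaling, nfe2l2 changed sign for the T3 effect in WT intestine (0.0448), the genotype difference in control intestine (0.0775) and the genotype by T3 interaction in tail (-0.0504), as did sqstm1 for T3 in TRDKO tail (-0.0308) and gclm for TRDKO against WT tail under T3 (-0.0331). That gclm value was -0.00426 with median-of-ratios scaling, -0.00424 with DESeq2 and -0.00296 with all libraries in 1 fit, in which nfe2l2 also changed sign in WT intestine with T3 (0.0255) and between genotypes in control intestine (0.0364). Leaving out each library gave ranges across 0 of -0.0415 to 0.00653 (gclc) and -0.0103 to 0.23 (srxn1) for T3 in TRDKO intestine, -0.0275 to 0.00571 (nfe2l2) for genotype in control intestine, and -0.15 to 0.47 (slc7a11) and -0.16 to 0.0181 (keap1) for genotype in intestine under T3. In tail the ranges were -0.00209 to 0.0229 (sqstm1, T3 in TRDKO), -0.0262 to 0.0442 (gclm, genotype under T3) and -0.37 to 0.30 (txnrd1, interaction), and between organs -0.0113 to 0.16 (keap1, T3 in TRDKO) and -0.0673 to 0.18 (srxn1, genotype). The cause was not tested.

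With the replicate block, the counts of genes past the threshold stayed within 1.5 times, with 9238 in WT intestine and 11731 in WT tail for T3. The block ended the calls of gclm for T3 in TRDKO intestine (-0.25, adjusted p = 0.0503), gclc for genotype under T3 (0.14, adjusted p = 0.0515) and nfe2l2 for the interaction in intestine (-0.15, adjusted p = 0.0574), and changed no other call of the 9 genes. Few counts limit slc7a11 in intestine and txnrd1 in tail.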

Other observations

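Amino acid response genes, many of them targets of ATF4 (which also acts on slc7a11 in mammals), were measured in the same libraries. With T3 in WT, 13 of 22 fell and 4 rose in intestine, and 12 fell and 6 rose in tail. Over all genes, 30.3% fell and 30.3% rose in intestine, and 33.5% fell and 35.4% rose in tail. Without hormone, 14 of 22 were lower in TRDKO than in WT in intestine (higher 3) and 13 in tail (higher 7). The shares over all genes were 28.7% lower and 29.1% higher in intestine, and 36.6% lower and 36.4% higher in tail. The T3 effect in WT and the genotype difference without hormone use the WT control libraries, in which 8 of the 9 genes were high. With T3, 10 of 22 rose and 4 fell in TRDKO intestine, and 12 rose and 5 fell in TRDKO tail. Their median log2 changes were 0.09 and 0.15. Of all genes, 20.6% rose and 20.3% fell in TRDKO intestine, and 26.7% rose and 26.2% fell in TRDKO tail. The glutathione-degrading enzyme gene chac1 rose by 1.55 ± 0.04 in TRDKO intestine and by 2.30 ± 0.03 in TRDKO tail, from 22.2 to 109 CPM. The leucine transporter gene slc7a5, which like slc7a11 works with the slc3a2 heavy chain, rose in intestine with T3 by 2.11 ± 0.10 in WT and 3.82 ± 0.10 in TRDKO, and fell by 1.53 ± 0.07 in WT tail. Its means in intestine were 6.7 CPM in WT control, 29.8 in WT T3, 3.196 in TRDKO control and 45.3 in TRDKO T3, so the T3 groups were the high ones, unlike slc7a11.

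Among haem and iron genes other than hmox1, more fell than rose with T3 in WT. With T3, 7 of 13 fell and 2 rose in WT intestine (median -0.34), and 9 fell and 1 rose in WT tail (median -0.26). Over all genes, 30.3% fell and 30.3% rose in WT intestine, and 33.5% fell and 35.4% rose in WT tail. Iron exporter gene slc40a1 fell by 0.77 ± 0.05 in WT intestine, and aco1, whose product switches between aconitase and iron sensor, fell by 1.30 ± 0.02 in WT tail. Among selective autophagy receptor and ATG8 genes besides sqstm1, 5 of 14 fell and 5 rose in WT intestine, and 7 fell and 5 rose in WT tail, near the shares over all genes in intestine (30.3% lower, 30.3% higher) and, for rises, in tail (35.4%). The kinase gene ulk1, which starts autophagy, rose with T3 in WT intestine by 0.71 ± 0.11 and in TRDKO intestine by 1.48 ± 0.12, and fell by 1.16 ± 0.03 in WT tail.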
